A study of Mus musculus with 32 samples.

Results

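The lungs of mice lacking glutathione reductase (Gsr-KO) were compared between postnatal day 56 (P56), when the mice are adult, and postnatal day 5 (P5), when alveoli are forming, in animals that had breathed room air throughout. The members are the 6 arrays labelled Gsr-KO in air at these ages, of 32 arrays in all, and all 13345 genes that could be tested on them. The groups used were Gsr-KO P56 air (KO P56), Gsr-KO P5 air (KO P5), Gsr-WT P56 air (WT P56), Gsr-WT P5 air (WT P5), Gsr-KO P56 after hyperoxia and Gsr-KO P5 hyperoxia, with 3 mice each, all of strain C3H/HeN. Hyperoxia was 100% oxygen from day 0 to day 5 with the dam, and the air groups were kept in room air over the same days. The RNA came from a piece of each lung, with 1 Affymetrix Mouse 430_2 array per mouse, and both Gsr-WT and Gsr-KO mice were also sampled at embryonic day 19 (E19), with 4 arrays per genotype. The allele of the knockout, the sex of the mice and their litters are not in the labels, so sex, litter and age cannot be separated by design.

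Glutathione reductase uses NADPH to turn oxidised glutathione back into its reduced form, the main small-molecule thiol that peroxidases and transferases draw on. In mice the gas-exchange surface is built after birth: secondary septa carrying elastin-producing myofibroblasts divide the saccules, cells proliferate, and the tissue later stops dividing, thins its walls and fills with immune cells. The adult airway is lined by club cells, which secrete protective proteins and carry much of the lung's drug-metabolising enzyme, and by ciliated cells.

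The deposited signals summed to between 31173000 and 35272000 units per array. A change is the log2 difference KO P56 minus KO P5 with its standard error (SE), computed after adding 26.3 units to each signal, and "called", "rose" and "fell" mean a limma adjusted p under 0.05 over all 13345 genes. Signals are given for replicates 1, 2 and 3 in that order. Gsr itself checked the labels: its main probe set gave at most 257 units on any Gsr-KO array and at least 498 on any Gsr-WT array, and its other probe set at most 106 and at least 260.0. Within Gsr-KO lungs Gsr had 193, 182 and 182 units at P56, against 158, 161 and 149.5 at P5. This change of 0.22 ± 0.18 was not called (adjusted p = 0.405).

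One KO P5 array stood apart. Over all tested genes, replicates 2 and 3 correlated with r = 0.989, whereas replicate 1 correlated with them at 0.961 and 0.952 and reached its highest value, 0.976, with a Gsr-KO E19 array. Its levels of several gene lists also lay apart. A list level averages log2 signal over a list's genes after each gene's mean of the 32 arrays was subtracted. For targets of the hypoxia-inducible factors (HIF) the level was 0.67 on replicate 1, and -0.23 and -0.43 on the other KO P5 arrays. For the antigen presentation genes of MHC class II it was -1.81 on replicate 1, and -0.51 and -0.56 on the others. Counts of gene lists are therefore also given without this array. The KO P56 arrays correlated with each other at 0.983 to 0.987. Xist, the X-inactivation transcript, had 5598, 9019 and 11567 units on the KO P56 arrays, against 779, 465 and 179 on the KO P5 arrays. The Y-linked gene Eif2s3y had 1396, 75.5 and 89.2 units on the KO P56 arrays, against 1761, 2086 and 2188 on the KO P5 arrays. Y-linked signal was thus high on every KO P5 array and on 1 KO P56 array, where Xist was high as well. The log2 ratio of 3′ to 5′ probe sets for beta-actin and Gapdh, a measure of RNA integrity and labelling, was 0.68 to 1.05 on the KO P56 arrays, against 0.22 to 0.70 on the KO P5 arrays. The summed signal was 33602000 to 34335000 on the KO P56 arrays, against 31530000 to 31998000 on the KO P5 arrays. The 5′ control probe set of 18S ribosomal RNA had 8395, 6928 and 2612 units at KO P56, against 512, 229 and 1867 at KO P5. On the Gsr-WT air arrays it had 4586 to 19030 units. With a covariate for Y-linked signal in the fit, 2105 genes were called up and 2147 down with age. That covariate moved 14 of the lists' counts of called members by over 1.5 times and took the call from 20 of 246 named genes, among them Fabp4, P4ha2, Igfbp5, Gpx3, Prdx4, Nr1d1 and Rps14. It left 1 of 27 HIF targets called up, against 4 in the fit without it, and the median of the clock genes was -0.12, against 0.13. The parts of the 3′ to 5′ ratio, the summed signal and the 18S signal in the results were not tested.

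With age, 2035 genes rose (15.2% of those tested) and 1912 fell (14.3%) in Gsr-KO lungs, 29.6% in all. More than 2-fold changes were seen in 951 and 770 of these. Counts of list members are to be read against the 15.2% that rose, the 14.3% that fell and the 29.6% called. The P56 and P5 arrays did not overlap for 1973 of the rising and 1845 of the falling genes. Over all tested genes, called or not, every KO P56 array was above every KO P5 array in 27.3% and below in 25.8%. Without KO P5 replicate 1 the counts were 1763 up (13.2%) and 1706 down (12.8%), or 26.0% in all. Of the genes called with all arrays, 3131 (23.5% of all tested) were also called without it, 816 lost their call, and none was called in the opposite direction. The median change over all genes was 0.00. The split of rises and falls depended on the scaling: centring each array on its own median shifted the median of all genes to -0.12 and gave 1316 up and 2237 down.

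**Figure D1:**
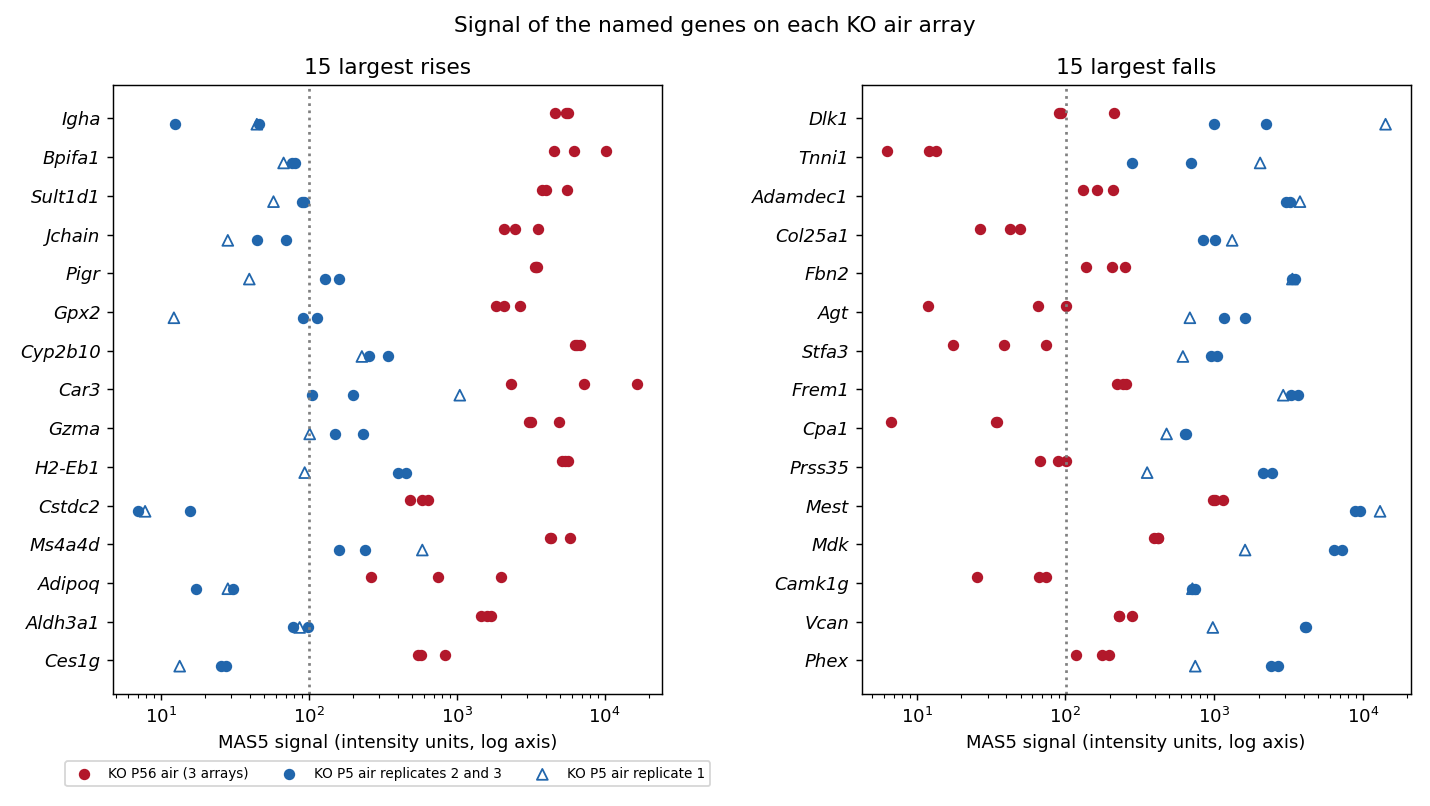
Deposited signal (horizontal axis, intensity units, log scale) of the 15 genes with the largest rises (left) and the 15 with the largest falls (right) on each Gsr-KO air array; red points are KO P56 arrays, blue points KO P5 replicates 2 and 3, open triangles KO P5 replicate 1, and the dotted line is 100.4, the median of all values. No KO P56 array overlaps a KO P5 array for any of these genes, which the choice of genes required; replicate 1 lies above the other KO P5 arrays for Dlk1 and below them for Mdk and Vcan.

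The 15 largest rises and 15 largest falls were taken among genes called with and without replicate 1 whose arrays did not overlap, and are plotted by array. The rises were in genes of immune cells, airway secretory cells, drug metabolism and fat. Igha, the constant region of the IgA heavy chain, had 5438, 5646 and 4584 units at KO P56, against 44.7, 45.9 and 12.5 at KO P5. Its change was 6.48 ± 0.44 (adjusted p = 7.26e-11). Since every KO P5 array was below 100.4 units, the size depends on the offset, and the KO P56 level was at least 5.37 log2 units above that value. Bpifa1, a protein secreted by airway epithelium, had 4521, 10198 and 6186 units against 67.8, 80.3 and 77.7, a change of 6.03 ± 1.15 that was at least 5.70 by the same bound. By that bound the changes of Sult1d1, Jchain, Aldh3a1, Adipoq, Ces1g and Cstdc2, also below 100.4 units on every KO P5 array, were at least 5.12, 4.40, 3.68, 2.60, 2.40 and 2.23. The other genes of this set were Sult1d1 (5.39, a sulfotransferase), Jchain (5.21, the joining chain of polymeric antibodies), Pigr (4.80, which carries polymeric IgA across epithelium), Gpx2 (4.67), Cyp2b10 (4.46), Car3 (4.37), Gzma (4.35), H2-Eb1 (4.21), Cstdc2 (4.03), Ms4a4d (3.94), Adipoq (3.90), Aldh3a1 (3.83) and Ces1g (3.79). IgA, its joining chain and its transporter were all among them.

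The 15 largest falls included genes of the growing lung. Dlk1, an imprinted Notch-family ligand of fetal tissue, fell by 4.43 ± 0.54 on the log2 scale, with 211, 90.3 and 93.2 units at KO P56 against 14245, 2238 and 1000.1 at KO P5. Replicate 1 was by far the highest, and without it the change was -3.35. Fbn2, the fibrillin of developing microfibrils, had 253, 207 and 138 units at KO P56 against 3365, 3344 and 3529 at KO P5, a fall that replicate 1 shared in full (-3.96 ± 0.31). The others were Tnni1 (-4.40, slow troponin I), Adamdec1 (-4.14), Col25a1 (-4.04), Agt (-3.87, angiotensinogen), Stfa3 (-3.74), Frem1 (-3.63), Cpa1 (-3.62), Prss35 (-3.51), Mest (-3.28), Mdk (-3.27, the growth factor midkine), Camk1g (-3.26), Vcan (-3.25, versican) and Phex (-3.21). For Agt, Col25a1, Stfa3, Tnni1, Camk1g and Cpa1, below 100.4 units on every KO P56 array, only a fall to below that level was measured, with bounds of -3.14, -3.08, -2.80, -2.61, -2.56 and -2.27.

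Genes of dividing cells fell as a block. All 35 tested mitosis genes fell with a median change of -1.95, where 14.3% of all genes fell and the median of all genes was 0.00. Without replicate 1 all 35 were again called and the median was -2.15. Cdk1, the kinase that drives entry into mitosis, had 239, 233 and 253 units at KO P56 against 1138, 1850.1 and 1886 at KO P5, a change of -2.59 ± 0.28 (adjusted p = 1.39e-07). Spc25, a kinetochore subunit, changed by -3.03, Cenpf, another kinetochore protein, by -2.61, and Ube2c, the ubiquitin-conjugating enzyme of the anaphase-promoting complex, by -2.51. Replicate 1 was the lowest KO P5 array for each of these 4 genes, still above every KO P56 array. Of 37 DNA replication genes 23 fell and none rose (median -0.86), and without replicate 1 the count was 26 (median -1.24). Uhrf1, which carries DNA methylation through replication, had 157, 141 and 168 units at KO P56 against 362, 1268 and 1139 at KO P5 (-2.21 ± 0.33). Tk1, a thymidine kinase of S phase, changed by -1.87. In tissue RNA of this kind, fewer cells of a type and less of the RNA per cell cannot be told apart.

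The promoters of the mitosis genes are shown because the members moved together. The letters TTTGAA are the cell cycle genes homology region, a short element known from promoters that peak in late cell cycle, and CCAAT is the box bound by NF-Y. Promoters came from RefSeq (GRCm38.p6), 250 bases before to 50 bases after each start, for 10729 of the tested genes, and were searched on both strands. TTTGAA was found in 24 of 31 mitosis promoters (77.4%), in 5 of 31 DNA replication promoters (16.1%) and in 14.5% of all 10729. CCAAT was found in 23 of 31 (74.2%), 18 of 31 (58.1%) and 42.1%. Both were found in 21 of 31 (67.7%), 4 of 31 (12.9%) and 6.83%. A match is a description of the letters and no evidence of use. The 110 bases before the start of 4 of these genes are given 5′ to 3′ on the gene's strand, with TTTGAA and the CCAAT box, on either strand, in capitals.
Cdk1, chr10:69352913-69353022, minus strand: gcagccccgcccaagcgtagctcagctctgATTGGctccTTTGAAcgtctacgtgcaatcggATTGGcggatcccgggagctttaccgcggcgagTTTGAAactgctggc
Ube2c, chr2:164769819-164769928, plus strand: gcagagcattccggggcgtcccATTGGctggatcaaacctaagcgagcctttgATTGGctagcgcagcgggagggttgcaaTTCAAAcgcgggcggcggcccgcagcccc
Top2a, chr11:99024190-99024299, minus strand: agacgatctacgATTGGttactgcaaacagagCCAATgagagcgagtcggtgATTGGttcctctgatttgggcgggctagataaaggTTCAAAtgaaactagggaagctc
Kif11, chr19:37376272-37376381, plus strand: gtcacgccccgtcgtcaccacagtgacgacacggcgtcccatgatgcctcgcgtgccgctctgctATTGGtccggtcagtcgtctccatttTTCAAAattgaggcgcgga

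Matrix genes of alveolar construction were lower at P56. Those of elastic fibre assembly fell in 63.2% and those of fibrillar collagens in 52.0%, against 14.3% of all genes. Of 19 genes of elastic fibre assembly 12 fell and 1 rose (median -1.003; -1.19 without replicate 1 with the same counts). Eln, elastin itself, had 4041, 4464 and 3726 units at KO P56 against 15801, 13349 and 15279.6 at KO P5 (-1.85 ± 0.17, adjusted p = 9.28e-09). Replicate 1 lay with the other KO P5 arrays here. Vcan, a proteoglycan that binds microfibrils, had 280.0, 228 and 228 units against 981, 4064 and 4127, so that replicate 1 was the lowest KO P5 array. Fbln2 changed by -1.90, and Lox, which cross-links elastin and collagen, by -1.74. The exception was Efemp1, fibulin-3, with 14522, 15294 and 11819 units at KO P56 against 2825, 2629 and 2851 at KO P5 (2.31 ± 0.31). Of 25 genes of fibrillar collagens and their processing 13 fell and 1 rose (median -0.78; -0.84 with the same counts without replicate 1). Col1a1, a chain of type I collagen, changed by -2.80 and Col5a1 by -2.01. The prolyl hydroxylase subunits P4ha3 and P4ha2 went opposite ways, at -3.05 and 0.99, with P4ha2 overlapping between the ages and losing its call without KO P5 replicate 2 or 3 or KO P56 replicate 2 or 3. The bound for P4ha3, below 100.4 units on every KO P56 array, was -2.23.

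Basement membrane genes, which underlie epithelium and endothelium, fell as well. Of 21 tested, 15 fell and none rose, with a median of -1.14 (-1.10 and the same counts without replicate 1). Nid2, a nidogen that links laminin to type IV collagen, had 121, 177 and 205 units at KO P56 against 2017, 1154 and 1003 at KO P5 (-2.83 ± 0.28). Lamc1, the gamma chain shared by most laminins, had 927, 1157 and 1108 against 6231, 5385 and 5293 (-2.38 ± 0.31). The laminin alpha chains Lama4 and Lama5 changed by -1.77 and -1.60. The 4 called chains of type IV collagen, Col4a1, Col4a2, Col4a3 and Col4a4, changed by -1.28, -1.57, -1.07 and -0.80, whereas Col4a5 and Col4a6 had changes of 0.30 and -0.01 that were not called. Col4a3 lost its call without KO P5 replicate 2 or 3 or KO P56 replicate 1. Every KO P56 array was below every KO P5 array for 17 of the 21 genes, as for 25.8% of all genes.

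Genes of the septal myofibroblast and its signals fell too. Of 18 alveolar myofibroblast genes 10 fell and none rose (median -0.99), and without replicate 1, whose level for this list was the lowest of its group, 12 fell (median -1.22). Tnc, the matrix protein tenascin C, had 769, 489.7 and 544 units at KO P56 against 1478, 6462 and 6377 at KO P5 (-2.69 ± 0.42). Tgfbi, a matrix protein induced by TGF-beta, changed by -1.77. Acta2 and Pdgfra, the actin and the growth factor receptor commonly used to mark these cells, had changes of -0.54 and -0.42 that were not called, although Acta2 was called at -0.79 without replicate 1. Of 31 genes of Hedgehog, Wnt, Bmp and Fgf signalling 15 fell and 2 rose (median -0.57; 15 and 3 without replicate 1). Shh, the Hedgehog ligand of lung epithelium, had 1369, 1401 and 1745 units at KO P56 against 6799.6, 4626 and 4723 at KO P5 (-1.81 ± 0.31). Hhip, its target and inhibitor in the mesenchyme, had 331, 327 and 404 against 5540.1, 2416 and 2559 (-3.11 ± 0.31). Ligand and target were lower together, and so were the transcription factors Gli2 (-1.42) and Gli3 (-1.33) and the receptor Ptch1 (-0.89). Wnt5a changed by -2.32 and Fgfr4, a receptor expressed in postnatal septation, by -1.80. Fgf1 and the Wnt inhibitor Sfrp1 were the genes that rose, by 1.14 and 1.198.

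Imprinted growth genes and fetal RNA-binding genes fell. Of 19 imprinted genes 13 fell and 2 rose (median -1.54; -1.41 with 13 down and 3 up without replicate 1). Peg3, a paternally expressed zinc-finger gene, had 822, 773 and 680.2 units at KO P56 against 5378, 4757 and 4964 at KO P5 (-2.69 ± 0.14, adjusted p = 1.18e-12). Mest, a paternally expressed enzyme gene, had 1013, 1144 and 992 against 13083, 9632 and 8939. Meg3, the maternal non-coding RNA next to Dlk1, had 1004, 683 and 627 against 11091, 3720.0 and 3527 (-2.76 ± 0.37). Replicate 1 was the highest array for each of these 3 genes and for Dlk1. The list level was 0.89 on replicate 1, 0.25 and 0.19 on the other KO P5 arrays, and 0.39 to 1.05 on the Gsr-KO E19 arrays. The 2 rising members were Dcn, the proteoglycan decorin, and Impact, at 1.61 and 0.86. Dcn lost its call without KO P5 replicate 2 or 3. Of 7 fetal RNA-binding and oncofetal genes 6 fell (5 without replicate 1), among them Igf2bp3 (-3.05), an RNA-binding protein of fetal tissue, and Sox11 (-2.86), a transcription factor of embryonic progenitors.

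Of 15 genes of the growth hormone and insulin-like growth factor axis 4 rose (26.7%, against 15.2% of all genes) and 6 fell (40.0%, against 14.3%), with a median of -0.50, and 3 rose and 5 fell without replicate 1. Igf1 had 712, 664 and 890.3 units at KO P56 against 2317, 3249 and 3571 at KO P5 (-1.96 ± 0.24), the signalling adaptor Irs1 changed by -1.85 and the receptor Igf1r by -1.17. The members that rose were the binding proteins Igfbp2 (2.34), Igfbp6 (1.99), Igfbp3 (1.40) and Igfbp5 (0.81). Igfbp2 had 11871, 9676 and 11258 units at KO P56 against 446, 4536 and 4663 at KO P5, and without the low replicate 1 its change was 1.24. Igfbp5 was not called without any single array of the 6 other than KO P56 replicate 1.

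MHC class II genes, which present antigen to helper T cells, rose in every tested member. All 10 genes of the class II list rose, where 15.2% of all genes did, with a median of 2.58 (2.22 and all 10 without replicate 1). H2-Eb1, a class II beta chain, had 5146, 5393 and 5614 units at KO P56 against 94.1, 405 and 456 at KO P5 (4.21 ± 0.32, adjusted p = 5.2e-10). H2-Ab1 changed by 3.67, H2-Ob, of the accessory H2-O molecule, by 3.31 (at least 2.78), and H2-Aa, the class II alpha chain, by 3.09. Ciita, the transactivator of these genes, rose by 2.31 (at least 1.09), and Cd74, the invariant chain, by 2.42. Replicate 1 was the lowest KO P5 array for each of H2-Eb1, H2-Ab1, H2-Ob and H2-Aa. In their RefSeq promoters CCAAT, a part of the known class II promoter (the Y box), was found in 6 of 7 (85.7%, against 42.1% of all) and TTTGAA in none of 7. The 110 bases before the start of 2 of them show it in capitals, as above.
H2-Eb1, chr17:34305757-34305866, plus strand: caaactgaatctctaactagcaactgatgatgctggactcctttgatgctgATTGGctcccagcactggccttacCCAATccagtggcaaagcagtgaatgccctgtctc
H2-Aa, chr17:34287824-34287933, minus strand: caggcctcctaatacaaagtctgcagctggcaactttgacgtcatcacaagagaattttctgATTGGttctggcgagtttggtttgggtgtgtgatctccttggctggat
Of 12 class I genes 10 rose (median 1.29), 7 without replicate 1 and 6 with arrays centred on their medians. Psmb9, an immunoproteasome subunit, changed by 2.30 and the class I heavy chain H2-K1 by 1.86.

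Lymphocyte and macrophage genes rose with them. Of 15 B cell and immunoglobulin genes 14 rose (median 1.63) and 1, Ebf1, fell (-0.76), with the same counts without replicate 1. Ebf1 was not called without any other single array. Jchain had 3567, 2470.0 and 2103 units at KO P56 against 28.4, 70.6 and 44.7 at KO P5. Ighm, the IgM heavy chain, had 3163, 1883 and 4413 against 5.997, 502 and 657, and its change of 3.73 ± 0.81 was 2.32 without replicate 1. Of 17 T and natural killer cell genes 15 rose (median 2.02; 15 and 1.85 without replicate 1). Gzma, the protease granzyme A, had 4952, 3078 and 3185 units against 102, 233 and 150.4. Ccl5, a chemokine of effector lymphocytes, changed by 3.50, the natural killer receptor chain Klrd1 by 3.09 and the T cell receptor subunit Cd3d by 2.90. Of 20 alveolar macrophage genes 16 rose (median 1.19), 14 without replicate 1. Chil3, a chitinase-like protein abundant in these cells, had 5300.1, 5187 and 5166 units against 1074, 278 and 201 (3.63 ± 0.55). Siglecf, their surface lectin, changed by 2.31, and by at least 1.63 since every KO P5 array was under 100.4 units. Thymus tissue would add T cell genes: of its 3 tested markers 1 rose, with or without replicate 1, and the list level was 0.35 to 0.53 at KO P56 against -0.29 to 0.21 at KO P5. The part of thymus tissue in the T cell result was not tested.

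**Figure D2:**
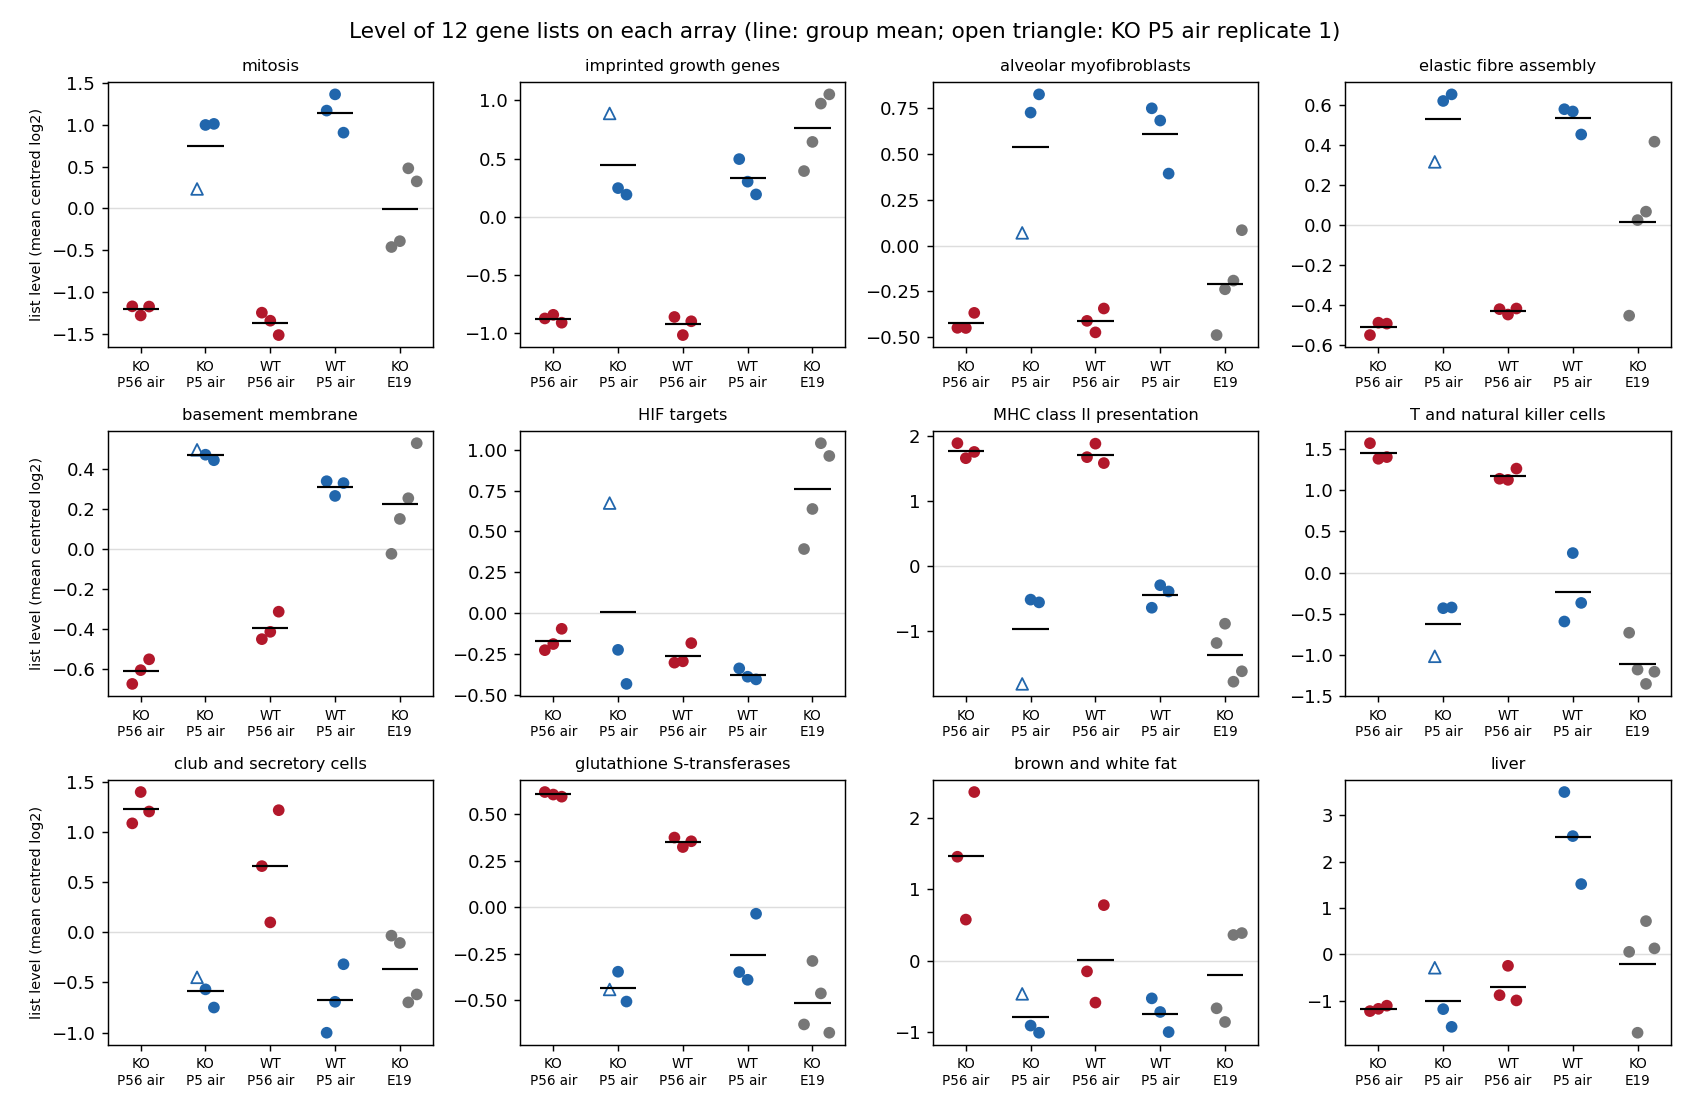
Level of 12 gene lists (vertical axis, mean log2 signal relative to the average of the 32 arrays) on each array of the air groups and of Gsr-KO at E19; points are arrays, lines group means, and the open triangle is KO P5 replicate 1. For MHC class II genes the KO P56 arrays lie at 1.65 to 1.88 and the KO P5 arrays at -1.81 to -0.51, while for HIF targets replicate 1 lies at 0.67, within the E19 range of 0.39 to 1.04 and above the other arrays of its group.

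The plot of list levels shows a separation of the ages for mitosis, elastic fibre, basement membrane, MHC class II and club cell genes on every array. The HIF panel does not separate them.

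Airway epithelial genes rose. Of 16 club and secretory cell genes 14 rose and none fell (median 1.77), and 15 rose without replicate 1. Cyp4b1, a monooxygenase of club cells and capillaries, had 14784, 18754 and 16683 units at KO P56 against 2826, 3246 and 3018 at KO P5 (2.45 ± 0.21, adjusted p = 1.99e-09). Gsta3 had 2437, 2895 and 2365 against 166, 268 and 186 (3.50 ± 0.69). Scgb3a1, a secretoglobin, had 14118, 19929.6 and 13909.5 against 2567, 1307 and 919 (3.41 ± 1.10), but was not called without KO P5 replicate 2 or 3 or KO P56 replicate 2. Of 18 ciliated cell genes 13 rose and none fell (median 0.99; 14 without replicate 1). That count was 8 without KO P5 replicate 2, 8 without KO P5 replicate 3 and 7 without KO P56 replicate 2. Tmem212 and Ccdc153, genes of motile cilia cells, changed by 2.44 and 2.32. Of 23 cytochrome P450 and flavin monooxygenase genes 16 rose and none fell (median 1.06; 17 rose without replicate 1). Cyp2b10 had 6547, 6839 and 6269.8 units against 229, 345 and 256 (4.46 ± 0.34), and replicate 1 did not stand apart for it.

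Some genes of alveolar epithelium rose. Of 23 type 1 cell genes 8 rose and 2 fell (median 0.33; 9 and 2 without replicate 1, and 5 up with centred arrays). Hopx, a transcriptional cofactor of type 1 cells, had 20108, 22451 and 21104 units at KO P56 against 13402, 10964 and 10798 at KO P5 (0.86 ± 0.13), and Ager, their receptor for glycation products, changed by 0.59. The 2 that fell, Col4a3 and Col4a4, are basement membrane collagens. The largest rise in the type 1 list, 4.46, was that of Cyp2b10, given above with the cytochrome P450 genes. Of 23 type 2 cell and surfactant genes 11 rose and none fell (median 0.57), with the same counts without replicate 1. The largest rise in this list, 2.42, was that of Cd74, given above with the MHC class II genes. The collectins Sftpa1 and Sftpd each changed by 1.01, while the hydrophobic surfactant proteins Sftpb and Sftpc had changes of 0.50 and 0.44 that were not called. Scd1, a fatty acid desaturase, had 20044, 20167 and 24773 units against 16403, 8799 and 6841, with replicate 1 nearest to the adult arrays. In the retinoic acid pathway, which patterns septation, 4 of 13 genes rose and 2 fell (46.2% called, against 29.6% of all genes). The counts were 5 and 1 without replicate 1. Lrat, which stores retinol as esters, had 1985, 2783 and 2000.0 units against 137, 138 and 162 (3.71 ± 0.33). Aldh1a1, which makes retinoic acid, changed by 1.69.

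Glutathione genes, the ones nearest to the missing enzyme, mostly rose with age. Of 20 glutathione S-transferases 14 rose and 1 fell (median 1.11; 13 up, 2 down and 1.13 without replicate 1). These enzymes join glutathione to electrophiles. Gsta4, which clears lipid peroxidation products, had 6442, 6788 and 6467 units at KO P56 against 2319, 2289 and 1979.5 at KO P5 (1.57 ± 0.23). Gsta2 had 1734, 1159 and 1182 against 179, 346 and 321 (2.19 ± 0.40), and the microsomal Mgst2 had 1562, 1038 and 1103 against 277, 252 and 209.7 (2.19 ± 0.30). Every KO P56 array was above every KO P5 array in these 3 genes, replicate 1 included. The member that fell was Gstm5 (-0.81).

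Of 26 genes of glutathione synthesis, transport and peroxidases 14 rose and 1 fell (median 0.71), 10 rose without replicate 1 and 8 without KO P56 replicate 2. Gpx2, a peroxidase of epithelium, had 2669, 2099 and 1833 units at KO P56 against 12.3, 114 and 91.7 at KO P5 (4.67 ± 0.76; 4.10 without replicate 1). Gclc, the catalytic subunit of the enzyme that limits glutathione synthesis, had 1939, 2258 and 2116 against 881, 703 and 905 (1.32 ± 0.30). Its modifier subunit Gclm had a change of 0.10 and was not called. Gpx3, the secreted peroxidase, had 11329, 13634 and 13731 against 11759.8, 3397 and 2578, so that the ages overlapped through replicate 1. Its change of 1.45 was 2.11 without that array and was not called without KO P5 replicate 2 or 3 or KO P56 replicate 2 or 3. Gpx7, a peroxidase of the endoplasmic reticulum, fell by 0.96 on the log2 scale.

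**Figure D3:**
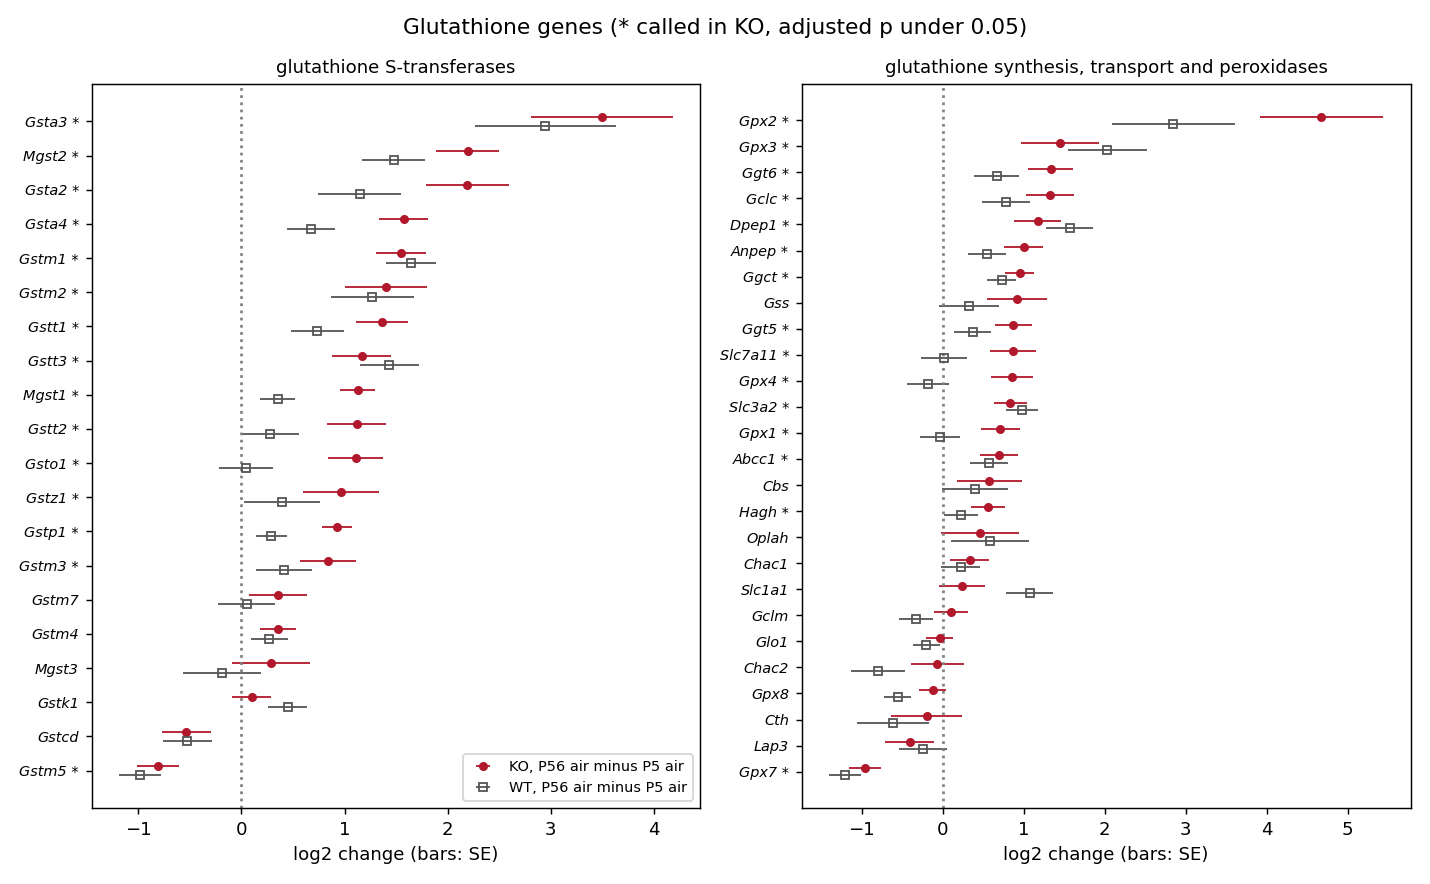
Log2 change between P56 and P5 in air (horizontal axis, bars SE) of glutathione S-transferases (left) and of genes of glutathione synthesis, transport and peroxidases (right); red points are Gsr-KO lungs, open squares Gsr-WT lungs, and asterisks mark genes called in Gsr-KO. Gpx2 shows the largest change of these genes in Gsr-KO lungs, 4.67, against 2.85 in Gsr-WT lungs.

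Of 27 targets of NRF2, the transcription factor of the antioxidant response, 18 rose and 1 fell (median 0.68), 12 and 1 without replicate 1. Aox1, aldehyde oxidase, had 1575, 1632 and 1375 units at KO P56 against 256, 214 and 206 at KO P5 (2.63 ± 0.31). Ephx1, microsomal epoxide hydrolase, changed by 1.87 and the quinone reductase Nqo1 by 1.22. Hmox1 (0.15), Txnrd1 (0.36) and Gclm (0.10), also standard targets, were not called. Gclc, Gclm, Slc7a11, Abcc1, Gsta3, Gsta4 and Gstm1 are also in the glutathione lists, so these counts overlap with those above. Of 16 superoxide dismutase, catalase and metallothionein genes 8 rose and 1 fell, against 9 and 0 without replicate 1. Sod3, the extracellular superoxide dismutase, had 1418, 1874 and 2302 units against 103, 285 and 326 (2.94 ± 0.34). The thioredoxin, peroxiredoxin and glutaredoxin list, the other main thiol system, moved little: 2 of 20 rose and 1 fell (median 0.16), against 1 and 1 without replicate 1. Srxn1, which repairs peroxiredoxins, rose by 1.14 and lost its call without KO P5 replicate 1 or KO P56 replicate 3. Prdx4, the peroxiredoxin of the endoplasmic reticulum, changed by -0.70, but was not called without KO P5 replicate 2 or KO P56 replicate 2 or 3. Its other probe sets changed by -0.20 and -0.18 and were not called. Of 21 NADPH-producing enzymes 5 rose and 2 fell (median -0.03), 33.3% called against 29.6% of all genes. The counts were 4 and 2 without replicate 1, and 2 rose without KO P56 replicate 3. Tkt, transketolase, changed by 0.63.

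Fibroblast genes moved in both directions. Of 19 alveolar fibroblast and lipofibroblast genes 6 rose and 8 fell (median -0.01; 6 and 7 without replicate 1). Inmt, a methyltransferase of adult alveolar fibroblasts, had 23896, 28321 and 26092 units at KO P56 against 5367, 2599 and 2142 at KO P5 (3.06 ± 0.26, adjusted p = 1.63e-09). Tcf21, a transcription factor of the same lineage, had 4520.3, 5621 and 5578 against 18143, 12506 and 13573 (-1.48 ± 0.12). In the same list Wnt2 changed by -1.22 and Pi16, an adventitial fibroblast gene, by 2.01. Of 24 capillary and pan-endothelial genes 4 rose and 1 fell, against 1 and 2 without replicate 1. The 16.7% that rose lay near the 15.2% of all genes. Emcn, endomucin, had 848, 1239.9 and 1260.0 units against 4371, 2914 and 2445 (-1.50 ± 0.36). Of 14 genes of aerocytes, the capillary cells facing the air, 4 rose and 1 fell (35.7%, against 29.6% of all genes). The counts were the same without replicate 1. Car4, their membrane carbonic anhydrase, had 5194, 7417 and 6655 against 1936, 3452 and 3056 (1.21 ± 0.26). In the lymphatic list of 8 genes 2 rose and 3 fell (62.5% called, against 29.6% of all genes), with or without replicate 1. Lyve1 and Flt4, the hyaluronan and VEGF-C receptors, changed by -1.29 and -1.13, and Pdpn and Thy1 by 0.70 and 1.10. Other lung cells also express Pdpn and Thy1, and Lyve1 is also in the monocyte and interstitial macrophage list. The other probe set of Flt4 changed by -0.20 and was not called. Of 12 mesothelium genes 7 rose and none fell (median 0.96; 7 without replicate 1), with Gpm6a, a membrane glycoprotein, at 2.75 ± 0.36.

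Stress and rhythm genes gave mixed counts. Of 32 interferon-stimulated genes 13 rose and none fell (median 0.87), 11 without replicate 1 and 8 without KO P5 replicate 2. Ifit3, an antiviral effector, had 1475, 1214 and 1726 units at KO P56 against 328, 317 and 402 at KO P5 (1.99 ± 0.27). Of 24 immediate early genes 10 rose and 2 fell, against 11 and 1 without replicate 1. Fos, a transcription factor subunit, had 7083, 5073 and 5554 against 1798, 1147 and 922 (2.21 ± 0.26). These transcripts respond within minutes to handling, and how the lungs were removed at each age is not in the labels. Of 17 clock genes 6 fell and 2 rose (47.1% called, against 29.6% of all genes). The counts were 4 and 2 without KO P5 replicate 1, with 3 down without KO P56 replicate 1. The period gene Per2 had 99.2, 101 and 169 units against 859, 473 and 467 (-2.04 ± 0.24), and Per3 changed by -1.34. Their other probe sets were not called, at -0.76 for Per2 and between -0.38 and 0.02 for Per3. Nr1d1, a clock repressor, rose by 1.19, which lost its call without KO P5 replicate 1 or KO P56 replicate 1. The hour of collection is not in the labels either.

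The medians of HIF and glucocorticoid targets changed sign without replicate 1, and their counts lay near those of all genes. Of 27 HIF targets 4 rose and 4 fell, 14.8% each way against 15.2% and 14.3% of all genes (median -0.12), and without it 5 rose and 3 fell (median 0.28). The count that rose was 1 or 2 without any other single array. Egln3, the prolyl hydroxylase induced by low oxygen, had 79.2, 83.5 and 114 units at KO P56 against 1241, 453 and 262 at KO P5, and its change of -2.25 ± 0.35 was -1.66 without replicate 1. Hif3a, a HIF subunit, had 143, 238 and 206 against 3402, 780.3 and 498 (-2.38, and -1.58 without). Another of its probe sets was called at -2.04, while the rest changed by 0.56, -0.07 and -0.66 and were not called. Among 18 glucocorticoid receptor targets 3 rose and 3 fell (16.7% each way), against 5 and 2 without it, and the median of -0.22 became 0.30. Fkbp5, a co-chaperone of the receptor, had 320.3, 227 and 295 units against 1615, 895 and 709 (-1.77, and -1.44 without). Its other probe set changed by -0.77 and was not called. In the signals given for Egln3, Hif3a and Fkbp5 replicate 1 was the highest array, and the other KO P5 arrays were still above all KO P56 arrays. Of 27 p53 targets 7 rose (25.9%, against 15.2% of all genes) and none fell (against 14.3%). Their called share of 25.9% was below the 29.6% of all genes, and 8 rose and 1 fell without replicate 1.

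Markers of neighbouring tissues were followed beside these results. Of 15 fat genes 11 rose and none fell, with a median of 2.26. Adipoq, the adipocyte hormone adiponectin, had 744, 262 and 2002 units at KO P56 against 28.5, 17.4 and 30.7 at KO P5. Car3, a carbonic anhydrase abundant in fat, had 7284, 2336 and 16555 against 1050.2, 201 and 106. Both were highest in KO P56 replicate 3 and lowest of the adults in replicate 2, and the list level was 1.46, 0.58 and 2.37 on the KO P56 arrays against -0.47, -0.91 and -1.01 on the KO P5 arrays. Without replicate 1 the count was 10 and the median 2.30. Fabp4 (1.83), a fatty acid binding protein, and Cfb (1.72), a complement factor, are also made by adipocytes and lie in other lists. Fabp4 lost its call without KO P5 replicate 2 or 3 or KO P56 replicate 3, and Cfb without KO P5 replicate 1 or 3 or KO P56 replicate 1 or 2. The part of attached fat in these rises was not tested. Of 18 liver genes none was called by limma, with or without replicate 1, with 1 at an unadjusted p under 0.05 and 1 called with arrays quantile-normalized, and their level was -1.22 to -1.10 at KO P56 against -1.56 to -0.29 at KO P5. Of 29 heart and skeletal muscle genes 1 was called, with or without replicate 1. This was Tnni1, with 12.1, 13.5 and 6.28 units at KO P56 against 2043, 704 and 283 at KO P5. Of 21 erythroid genes 4 fell and 1 rose (median -0.77), 23.8% called against 29.6% of all genes. Without replicate 1 the counts were 6 and 1. Slc4a1, the red cell anion exchanger, had 838, 488 and 539.6 units at KO P56 against 1029, 3429.9 and 3852 at KO P5 (-1.94 ± 0.55), and lost its call without KO P5 replicate 2 or 3. Of 9 mast cell and basophil genes 4 fell and Hdc, histidine decarboxylase, rose by 1.87, with the same counts without replicate 1. The count that fell was 2 without KO P5 replicate 2 or 3 or KO P56 replicate 2. Cpa3, a mast cell protease, changed by -1.85 (bound -0.73).

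Housekeeping groups moved little and with the scaling. Of 36 subunits of oxidative phosphorylation 6 rose (16.7%, against 15.2% of all genes) and none fell (median 0.21), and 1 of them, Ndufb2, was called without replicate 1. The count was also 1 without KO P56 replicate 1 and 3 without KO P5 replicate 3. Of 25 ribosomal protein genes 3 rose and 1 fell (median 0.20), against 2 and 1 without replicate 1, and quantile normalization turned that median to -0.11 with none up and 5 down. Rps14, Rpl38 and Rpl19, the 3 that rose, changed by 0.57, 0.41 and 0.31. None of the 3 was called without KO P5 replicate 2.

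Called shares of the remaining lists, set against the 29.6% of all genes, lay on either side of it. Of 6 cartilage genes 1 rose and 3 fell (66.7%), against 1 and 2 without KO P5 replicate 1. Hapln1, a link protein of cartilage matrix, fell by 2.21 on the log2 scale (bound -1.11), and Chad, the matrix protein chondroadherin, rose by 1.85, a call lost without KO P5 replicate 3 or KO P56 replicate 2 or 3. Of 15 complement and innate humoral genes 5 rose and 1 fell (40.0%), against 4 and 0 without replicate 1, and of 19 monocyte and interstitial macrophage genes 6 rose and 1 fell (36.8%), against 5 and 1. Of 16 pericyte and vascular smooth muscle genes 1 rose and 4 fell (31.2%), against 1 and 3 without replicate 1. The other lists were below the share of all genes. Of 20 neutrophil genes 4 rose and 1 fell (25%), against 2 and 1 without replicate 1, and of 8 neuron and glia genes 1 rose and 1 fell (25%), against 0 and 1. Of 27 cholesterol and fatty acid synthesis genes 5 rose and 1 fell (22.2%), against 5 and 0 without replicate 1. Of 22 angiogenic growth factors and receptors 1 rose and 3 fell (18.2%), against 0 and 2, and their median was 0.06 with replicate 1 and -0.04 without it. Of 13 basal and squamous epithelium genes 1 rose and 1 fell (15.4%), against 1 and 0 without replicate 1.

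**Figure D4:**
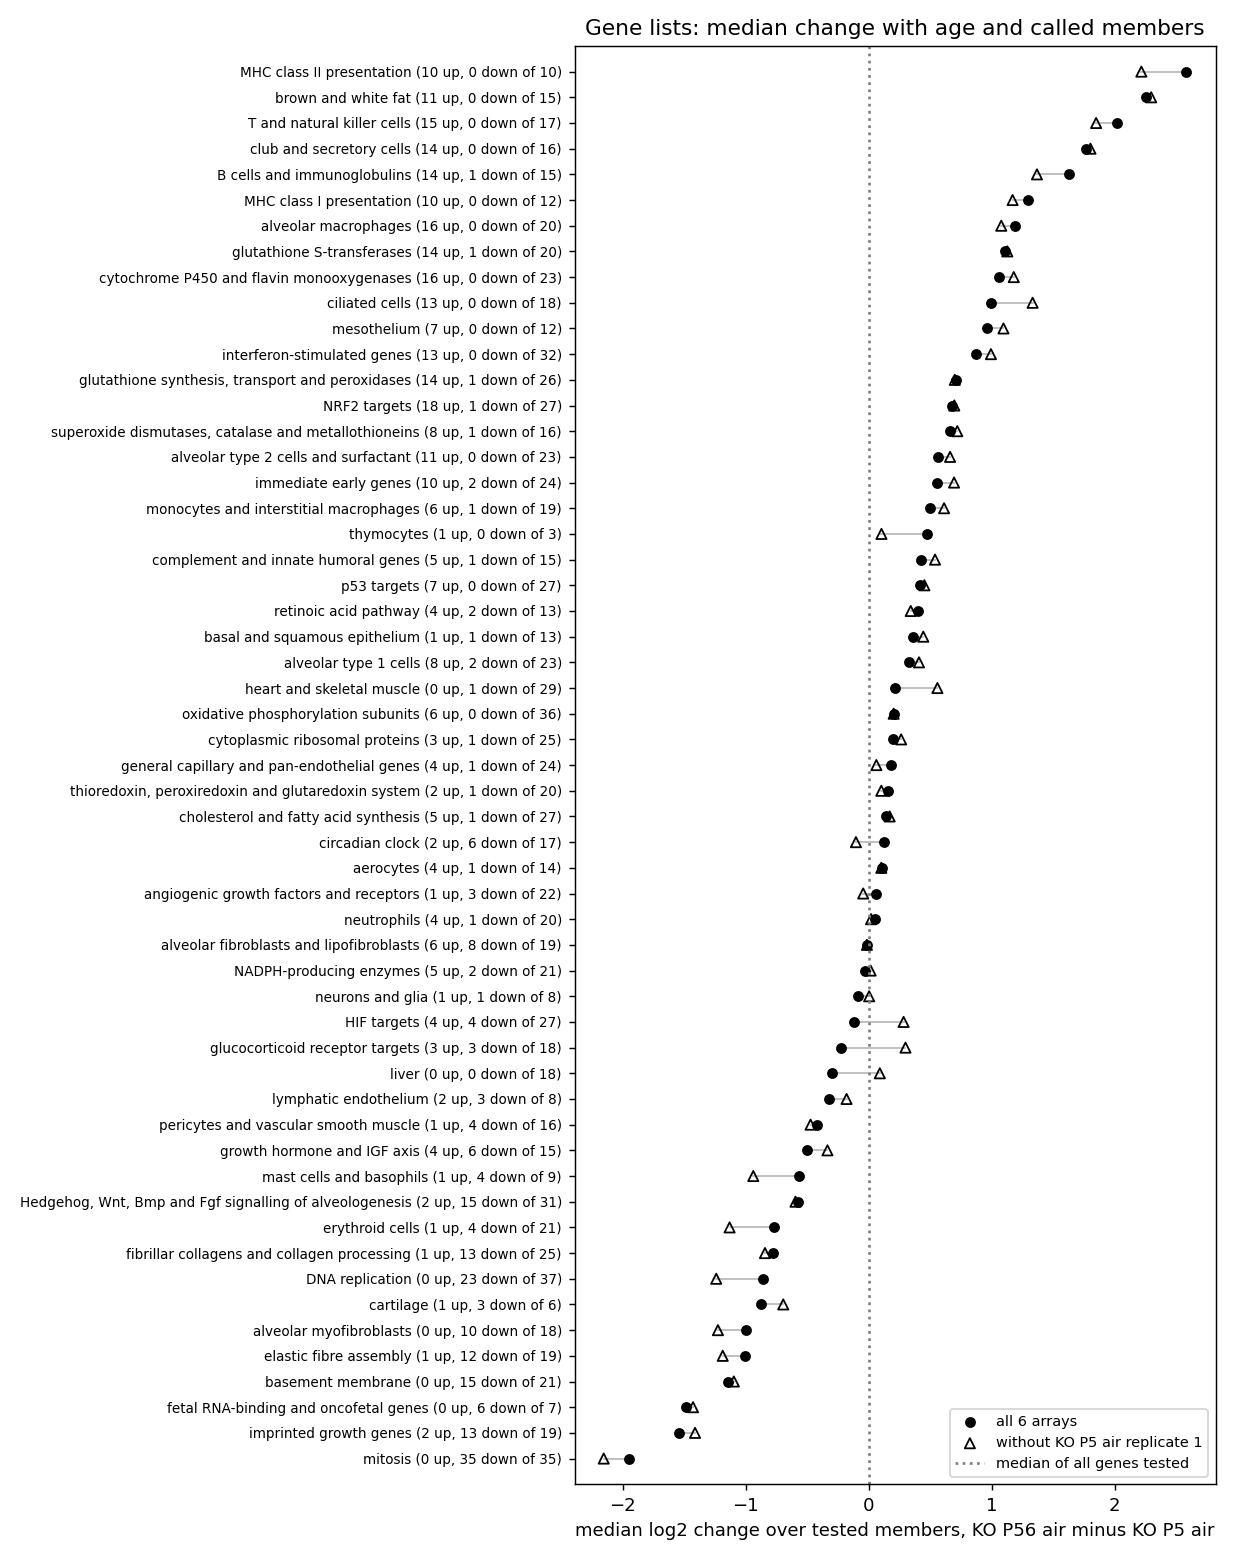
Median log2 change, KO P56 minus KO P5, over the tested members of each gene list other than the sex-linked genes (horizontal axis) with all 6 arrays (filled points) and without KO P5 replicate 1 (open triangles); the counts of called members with all arrays are beside each name. Of the lists drawn, mitosis lies lowest at -1.95 and MHC class II highest at 2.58, and among the lists that leaving out replicate 1 moves across 0 are HIF and glucocorticoid targets.

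The plot of list medians shows mitosis genes lowest and fat and MHC class II genes highest, of the lists drawn, with and without replicate 1. The sex-linked list, Xist and 3 Y-linked genes, was not drawn: its median was -2.71, or -2.67 without replicate 1, and none of its 4 genes was called by limma, with 2 at an unadjusted p under 0.05.

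The same ages were compared in Gsr-WT lungs, which share no array with the Gsr-KO comparison. There 1612 genes rose (12.1%) and 1446 fell (10.8%). Of the Gsr-KO calls 51.8% were called the same way in Gsr-WT, and of the Gsr-WT calls 66.9% were called the same way in Gsr-KO, 1098 up and 948 down in all, with 6 called in opposite directions. The changes correlated across the 13345 genes with r = 0.77 and rho = 0.70 (r = 0.78 without KO P5 replicate 1), a description in which genes are not independent and share the arrays. Of the genes called in Gsr-KO 92.7% had the same sign in Gsr-WT, against 73.8% of all genes. Mitosis genes fell in 35 of 35 cases in either genotype, with medians of -1.95 in Gsr-KO and -2.56 in Gsr-WT, and -2.15 in Gsr-KO without replicate 1. Basement membrane genes fell in 15 of 21 cases in Gsr-KO and 10 in Gsr-WT, with medians of -1.14 in Gsr-KO and -0.67 in Gsr-WT. Of 20 glutathione S-transferases 14 rose in Gsr-KO (median 1.11) and 8 in Gsr-WT (median 0.40). Of 27 NRF2 targets 18 rose in Gsr-KO (median 0.68) and 7 in Gsr-WT (median 0.25). Of 15 fat genes 11 rose in Gsr-KO and 1 in Gsr-WT. These counts compare calls, and the difference itself is tested next.

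**Figure D5:**
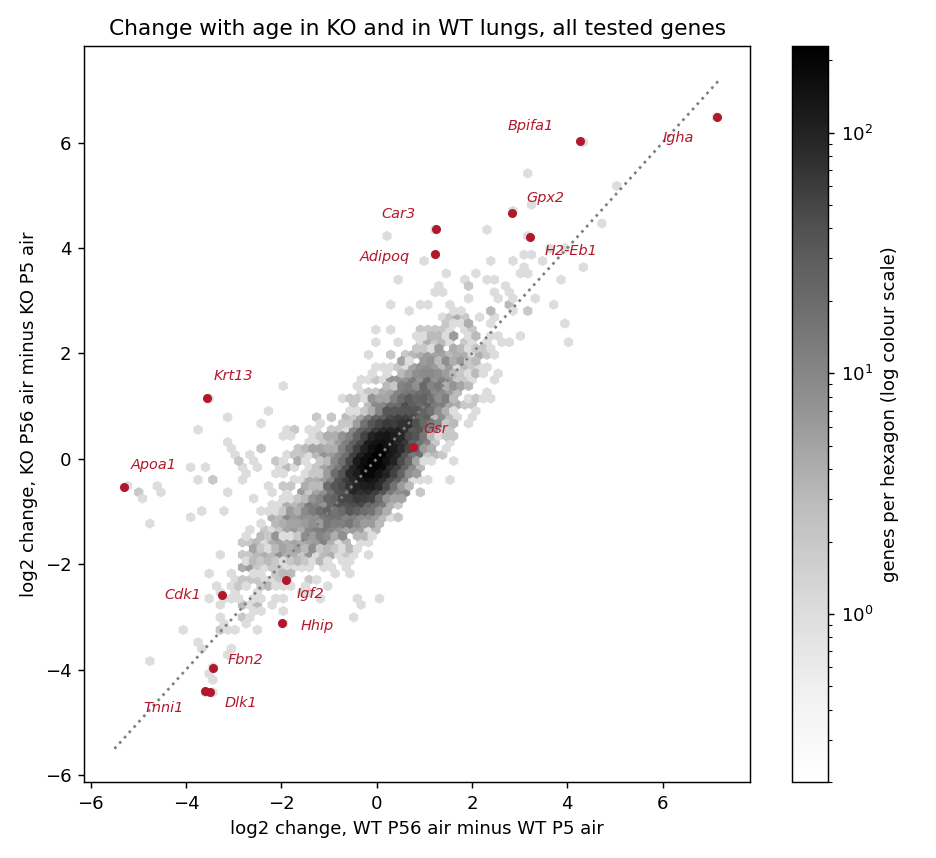
Log2 change between P56 and P5 in air in Gsr-KO lungs (vertical axis) against Gsr-WT lungs (horizontal axis) for all 13345 genes, shaded by genes per hexagon on a log colour scale, with selected genes in red and the line of equal change dotted. The changes correlate with r = 0.77 over all genes. Adipoq and Car3 lie above the line, and Apoa1 and Krt13 lie far left of it.

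For the difference between the genotypes' changes (Gsr-KO minus Gsr-WT), the limma fit of all arrays called 0 genes (0%), with 1531 at an unadjusted p under 0.05, and 0 without KO P5 replicate 1. A fit of the 12 air arrays alone called 464 of the 13345 genes tested, 225 up and 239 down. A fit with array weights called 2595. The fit of all arrays includes a Gsr-KO E19 array and a Gsr-WT P56 hyperoxia array that the 12-array fit leaves out. Their log2 ratios of 3′ to 5′ probe sets were 4.27 and 2.81, and their highest correlations within their groups 0.884 and 0.933. The cause of these differences between fits was not tested. In the 12-array fit 13 of 18 liver genes were called up. Their level was 1.52 to 3.50 on the WT P5 arrays, against -1.56 to -0.29 on the KO P5 arrays, so that liver transcripts in the Gsr-WT lungs move with that count; their part in other genes was not tested. In the same fit 10 of 36 subunits of oxidative phosphorylation and 8 of 25 ribosomal protein genes were called up. So were 3 of 27 NRF2 targets and 2 of 26 genes of glutathione synthesis, transport and peroxidases. Neutrophil genes were called up in 2 of 20 cases, and club and secretory cell genes in 2 of 16. Called down were 4 of 21 basement membrane genes and 3 of 24 endothelial genes. So were 2 of 15 genes of the growth hormone and insulin-like growth factor axis and 2 of 22 angiogenic genes. The 12-array fit called 2 of 20 glutathione S-transferases up and none of the 15 fat genes. These list counts are to be read against the 225 up and 239 down of 13345 genes tested. The plot of Gsr-KO against Gsr-WT changes shows Apoa1, a liver apolipoprotein, far to the left of the line of equal change. Among genes farthest in the other direction were Prelp, a matrix proteoglycan, which rose by 2.23 in Gsr-KO and 3.97 in Gsr-WT, and Pdgfra, with changes of -0.42 in Gsr-KO and 1.13 in Gsr-WT. Both were called in the 12-array fit (adjusted p = 0.0296 and 0.0492) and not with all arrays (0.164 and 0.244). Gsr changed by 0.22 in Gsr-KO and 0.76 in Gsr-WT lungs.

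The maturation of Gsr-KO lungs in air was also set against that of Gsr-KO lungs that had been in hyperoxia until P5. In those, 2164 genes rose (16.2%) and 1654 fell (12.4%) between P5 and P56, and their changes correlated with those in air at r = 0.84 across all genes. The difference of changes (air minus hyperoxia) was called for 11 genes up and none down (0.0824%), with 565 at an unadjusted p under 0.05, and for 8 up without KO P5 replicate 1 (0.0599%). Most are genes of striated muscle, such as the fast troponins Tnnc2 and Tnnt3, the actin Acta1, the myosin Myh8 and the actinin Actn3, and Krt4 is a keratin of squamous epithelium. Leaving out any single array of these groups other than KO P5 air replicate 1 left none called. Tnnc2, the calcium-binding troponin of fast muscle, had 7.25, 6.87 and 5.75 units at P56 after hyperoxia, against 4121, 3575 and 3661 at P5 in hyperoxia, while its change in air was 0.38. Its signal was high on all 3 P5 hyperoxia arrays. The heart and skeletal muscle list holds 4 of the 11 called genes. Its level was -0.93 to -0.75 at P56 after hyperoxia, against 0.84 to 1.33 at P5 in hyperoxia. The level of the basal and squamous epithelium list, which holds Krt4, was -0.54 to -0.41 at P56 after hyperoxia, against 1.56 to 2.09 at P5 in hyperoxia. It was -0.41 to -0.07 on the KO P56 air arrays, against -0.59 to -0.21 on the KO P5 air arrays.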

How the data were processed

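Lung RNA from 32 mice was hybridised to 1 Affymetrix Mouse 430_2 array each, and groups were taken from the labels. The deposited intensity values were made with MAS5 by the authors, per the submitters' processing notes; settings are not given in the sources used here. On every array the mean after trimming 2% at each end was 500. From these intensities, log2(value + 26.3) was computed, the offset being the 25th percentile. Probe sets that exceeded 100.4, the overall median, on 3 or more arrays were kept (27089 of 45101). Of these, 23428 had 1 gene symbol in the platform annotation; 932 probe sets on the array had several symbols and 9160 none. Each of 13345 genes was represented by whichever of its probe sets averaged highest across the arrays. One linear model over the 10 groups (22 residual degrees of freedom) was fitted with limma 3.58.1 in R 4.3.3, with a trended prior variance and Benjamini-Hochberg adjustment over all genes. The script was tested on simulated data.

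The members and the 56 gene lists (998 of 1157 genes tested) were chosen with earlier results of these data known. Genes named are Gsr, the 15 highest and 15 lowest changes called with and without KO P5 replicate 1 with no overlap of arrays, up to 4 called members of each list per direction, and the 8 highest and 8 lowest of each difference of changes. Other genes were named after their values were seen: Xist, Eif2s3y, Acta2, Pdgfra, Prelp, Ager, Apoa1, Krt13, Ciita, the further Col4 chains, Gclm, Hmox1, Txnrd1, Nqo1, Gli2, Gli3, Ptch1, Lox, Kif11, Top2a and the surfactant proteins. Of 201 other probe sets of the called named genes, 13 had the opposite sign and 0 were called in the opposite direction by limma. Same-numbered KO P56 and KO P5 arrays did not deviate together (r of -0.11, -0.02 and -0.02), so the numbers were not treated as pairs. The p-values measure the spread between mice of a group. Nothing in the labels says how litters were shared, so whether this includes the spread between litters is not known. That spread was estimated within the 10 groups over all 32 arrays, and so not from the 6 Gsr-KO air arrays alone. The number of arrays limits the precision. Alternatives changed the filter, offset, normalization, variance model, weights, block, arrays and probe set choice.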

Additional observations from a re-analysis of the deposited data

Results flagged for a closer look

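The 8 genes below were singled out because a limma test of the difference itself found their change with age in Gsr-KO air lungs to differ from that in Gsr-KO lungs after hyperoxia. The differences (air minus hyperoxia, log2) were 7.24 for Tnnc2, 6.47 for Krt4, 6.42 for Acta1, 6.32 for Myh8, 4.58 for Tnnt3, 4.07 for Atp1b4, 3.86 for Myot and 3.21 for Actn3, with adjusted p of 0.0403 for all but Actn3 (0.0439). In each of these genes all 3 KO P56 hyperoxia arrays were below all 3 KO P5 hyperoxia arrays, and the change in air was between -0.27 and 0.83. Without KO P5 air replicate 1 the adjusted p was 0.0591 for Myot and 0.0632 for Krt4, and the other 6 were still called. Leaving out any other single array of the Gsr-KO air or hyperoxia groups left none called. So did the stricter filter, an offset of 1, quantile normalization, centring, the replicate block and separate probe sets. The level of the heart and skeletal muscle list moves with these results, and for Krt4 so does that of squamous epithelium. The squamous list level was -0.54 to -0.41 on the KO P56 hyperoxia arrays against 1.56 to 2.09 on the KO P5 hyperoxia arrays. The muscle list holds 4 of the genes called for this difference and the squamous list holds Krt4, so these levels partly repeat the same values. The part of muscle and squamous tissue in these 8 results was not tested.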

How the results depend on the processing

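In the Gsr-KO air comparison 18 alternative settings were run. Of 246 named genes 2 reversed, both under quantile normalization: Rpl38 (-0.0909, adjusted p = 0.187) and Rpl19 (-0.0476, adjusted p = 0.734). Of 254 named genes in all comparisons, 74 lost their call in 1 or more settings. Centring gave 1316 genes up; array weights gave 3793 up and 3779 down in Gsr-KO, 3813 and 3809 in Gsr-WT, and 5074 called the same way in both (2046 by the reported fit). Fitting only the compared groups gave 2863 up and 2759 down in Gsr-WT. For the Gsr-KO minus Gsr-WT difference, called for 0 genes by the reported limma fit, array weights gave 1251 up and 1344 down and the compared groups alone 225 and 239. For the air minus hyperoxia difference, array weights gave 684 up and 890 down, the compared groups alone 46 and 5, an offset at the median 18 up, and no filter 1 down; the stricter filter, an offset of 1, quantile normalization, centring, the replicate block and separate probe sets each gave 0 up. The replicate block gave 1999 up and 1877 down in the Gsr-KO comparison. Leaving out 1 array gave 1515 to 1763 up and 1405 to 1706 down in Gsr-KO, 1078 to 1436 up and 1041 to 1328 down in Gsr-WT, 0 for the genotype difference, and 0 to 8 up for air minus hyperoxia, where 8 came without KO P5 air replicate 1 and 0 otherwise. The cause of these shifts was not tested. Signals below 100.4 units give bounds only, and 3 arrays a group limit what can be called.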
